A study of Drosophila melanogaster with 6 samples.

Results

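The Notch receptor gene N, its ligand gene Dl, the pathway's DNA-binding factor gene Su(H) and 5 target genes of the Enhancer of split complex were followed in stem cell enriched preparations of the fly midgut. These 8 genes were taken by name from the Gene field of a deposited comparison of 8164 gene rows, and each of the 8 had a row to itself. RNA came from cells sorted for green fluorescence out of midguts of a single fly line, which carries yw and, on the transgene side, esg-GAL4 NP5130 with UAS-GFP and UAS-GFPnlacZ. The label of that line ends in N 1099, which it does not explain. All libraries share this genotype: 3 were made from young flies, 6 to 8 days old, and 3 from old flies, aged 59 to 65 days. The driver escargot-GAL4 is active in intestinal stem cells and in their immediate daughters, so sender and receiver of the Notch signal are both within the sorted population.

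The values below are those of the authors' comparison of the ages, which lists for every row the log2 fold change, the mean over the libraries as log2 CPM (counts scaled to a common library total), and the p-value before and after adjustment. The names of the columns that hold single libraries match no sample label, so no value per library, standard error or depth per library is given. The sources used here do not state which age is the numerator. Each difference therefore has a sign and not an age, and genes of the same sign were higher at the same age. A gene is called where its adjusted p is under 0.05. In sorted bulk RNA, fewer cells of a type and less RNA per cell cannot be told apart.

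Notch is a cell surface receptor that is cut when a neighbouring cell presents the ligand Delta. The freed inner part enters the nucleus and joins Suppressor of Hairless, the product of Su(H), to switch on target genes, foremost those of the Enhancer of split complex. In the fly midgut, stem cells carry Delta and signal to their daughters, the enteroblasts, where strong Notch activity leads to the absorptive enterocyte fate and weak activity accompanies the hormone-producing enteroendocrine fate. The complex encodes a family of basic helix-loop-helix (bHLH) repressors, which include the products of E(spl) (now E(spl)m8-HLH), HLHmdelta, HLHmbeta and HLHm3, and Bearded family proteins such as that of malpha, which act on the Notch pathway itself.

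Of the 8 genes, E(spl) and HLHmdelta were called, both with a positive sign, and the other 6 did not pass. As the background, 7.1% of all rows in the authors' deposited table were called, 5.17% with a positive and 1.94% with a negative sign. The 2 calls belonged to the least abundant of the 8 genes. E(spl) is on the plus strand of 3R, from 21866046 to 21866585 in dm3 (FBgn0000591). The authors' deposited table lists E(spl) at a log2 fold change of 1.94, or 3.84-fold, on a mean of 3.46 CPM (p = 5.40e-07, adjusted p = 3.13e-05). By p-value this row stood at rank 141. HLHmdelta lies on the same strand from 21823343 to 21824358 (FBgn0002734). For HLHmdelta the authors' deposited table has 1.998, or 3.99-fold, on a mean of only 1.06 CPM (p = 3.07e-05, adjusted p = 0.00107). Both genes thus differed between the ages about equally in size, at levels in the lower part of the table: 19.8% of rows were less abundant than E(spl) and 4.37% less abundant than HLHmdelta.

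Calls were more frequent among rows of low abundance, so both genes were also read against their like. Among the 500 rows nearest to E(spl) in mean abundance, 54 were called, or 10.8%, 43 of them positive. Only 10 of those 500 rows had a larger log2 fold change than E(spl). Around HLHmdelta, 92 of 500 rows were called, or 18.4%, 72 of them positive, and 21 had a larger log2 fold change. The positive sign itself was common at these levels, with 365 of 500 rows positive around E(spl) and 316 of 500 around HLHmdelta. Some rows, such as the His2A rows near HLHmdelta, repeat the same values under several names, and each was counted. Relative to the median of their 500 neighbours, the log2 fold changes were 1.63 for E(spl) and 1.70 for HLHmdelta.

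The 3 abundant targets had small differences of the opposite sign and were not called. HLHmbeta (minus strand of 3R, 21830648 to 21831745, FBgn0002733) was the most abundant of the 8 genes, at a mean of 791 CPM. The authors' deposited table puts HLHmbeta at -0.32 (adjusted p = 0.637). HLHm3 (plus strand, 21847437 to 21848858, FBgn0002609) stands in the authors' deposited table at -0.38 and a mean of 250.3 CPM (adjusted p = 0.569). The Bearded family gene malpha (plus strand, 21836685 to 21837101, FBgn0002732) had the lowest value of the 8 in the authors' deposited table, -0.54 at 241 CPM (p = 0.0743, adjusted p = 0.325).

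A negative sign was the rule among the rows nearest in abundance to these genes. Of the 500 rows nearest in abundance, 430 were negative around HLHmbeta, 409 around HLHm3 and 410 around malpha. Set against the median of those rows, the log2 fold change was 0.17 for HLHmbeta, -0.03 for HLHm3 and -0.19 for malpha, so HLHmbeta changed sign. The smallest difference that was called among these neighbours had a size of 0.94 on the log2 scale for each of the 3 genes. It came from the same row, PGRP-LB, each time, which is less abundant than HLHmbeta. Counted from the most abundant row, HLHmbeta stood at rank 180, so most of its 500 nearest rows were less abundant than the gene. Its value of 0.17 is therefore relative to mostly less abundant rows, and the range of abundance they cover is not given here.

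**Figure D1:**
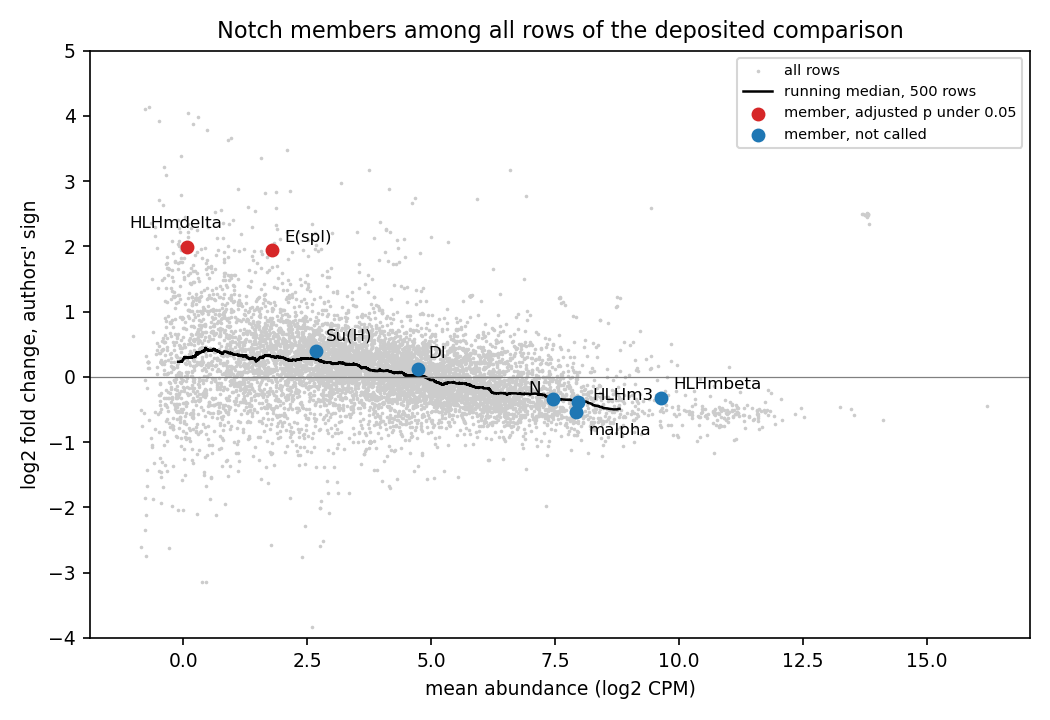
Each grey point is a gene row of the authors' deposited comparison, with mean abundance as log2 CPM on the horizontal axis and log2 fold change with the authors' sign on the vertical axis; 10 rows lie outside the axis. E(spl) and HLHmdelta (red, called) sit at 1.94 and 1.998, far above the black running median, while the other 6 genes (blue, not called) follow it from positive values at low abundance to negative values at high abundance.

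The receptor, the ligand and the DNA-binding factor had no call. N, the receptor gene, spans X from 3028905 to 3066295 on the plus strand in dm3 (FBgn0004647), with 9 exons in the transcript that was matched. N is listed in the authors' deposited table at -0.34 on the log2 scale with a mean of 176 CPM (adjusted p = 0.680). Against its 500 neighbours in abundance, of which 391 were negative, the value of N was -0.04. Dl, the ligand gene that marks the stem cell, lies on the minus strand of 3R from 15128453 to 15151935 (FBgn0000463) and has 6 exons. The authors' deposited table holds Dl at 0.13 on a mean of 26.5 CPM (p = 0.739, adjusted p = 0.909), and 344 of its 500 neighbours differed more in size. Su(H), on the plus strand of 2L from 15039496 to 15043335 (FBgn0004837), stands at 0.40 and 6.37 CPM in the authors' deposited table (adjusted p = 0.616), or at 0.13 against its neighbours.

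The smallest called difference among neighbours had a size of 0.87 for N, 0.92 for Dl and 0.93 for Su(H) on the log2 scale. The measured differences of these 3 genes were smaller, and a p that misses the threshold does not show that the ages were alike. Per kilobase of transcript, with lengths of the matched transcripts in the BDGP6 annotation, mean levels were 17.3 CPM for N, 5.02 for Dl and 2.16 for Su(H). No row of the table overlapped the span of any of the 8 genes, which matters because the library kit does not mark strand. Genes without a row were not checked for overlap.

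The Enhancer of split complex is a cluster of small genes on 3R, and the table holds 11 rows from HLHmdelta to gro, the gene of the co-repressor Groucho that closes it. These rows are not the whole complex, since its genes HLHm5 and m4 had no row. The 2 calls lie near opposite ends: E(spl) starts 42.7 kb after HLHmdelta. Between them, in order, the log2 fold changes in the authors' deposited table were 0.50 for HLHmgamma, -0.32 for HLHmbeta, -0.54 for malpha, 0.35 for m1, 0.56 for m2, -0.38 for HLHm3, 0.21 for m6 and 0.80 for HLHm7. None of those 8 was called. HLHm7, another bHLH repressor gene and the direct neighbour of E(spl) in the table, came nearest (p = 0.0167, adjusted p = 0.135 in the authors' deposited table), at 8.71 CPM. Its value stayed at 0.60 against rows of like abundance, where 26 of 500 rows were larger. On the far side of E(spl), gro had -0.11 at 112 CPM in the authors' deposited table (adjusted p = 0.919), and its span overlaps that of exo84.

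Levels within the complex spread far more than the differences between the ages. Leaving out gro, which had 37.4 CPM per kilobase, mean levels per kilobase were 720.2 CPM for HLHmbeta, 578 for malpha and 176 for HLHm3. Next came m1 at 24.7, HLHm7 at 12.04, HLHmgamma at 7.76, E(spl) at 6.40, m6 at 3.76, HLHmdelta at 1.05 and m2 at 1.01. HLHmbeta was thus 113-fold above E(spl) and 689-fold above HLHmdelta in level per kilobase. The length used was that of the matched transcript for m1 and gro, and the span of the row for the other genes, which have a single exon. The rows of E(spl) and malpha span 540 and 417 bases, which are their coding lengths in the BDGP6 annotation, whereas HLHmbeta spans 1098 bases with a coding part of 588, so untranslated parts belong to the rows of some of these genes and not of others.

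Sign and abundance went together in the complex. The 3 genes above 100 CPM other than gro were negative and the 7 less abundant genes positive in log2 fold change. Over these 10 genes, which share the same libraries, log2 fold change against mean log2 CPM gave a Pearson r of -0.78 and a Spearman rho of -0.77. Over all 8164 rows the same measures were -0.29 and -0.38. After subtraction of the median of rows of like abundance, the 10 genes gave -0.57 and -0.61, and 7 of 10 were above 0. Whether abundance itself has a part in the difference between E(spl) genes was not tested.

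**Figure D2:**
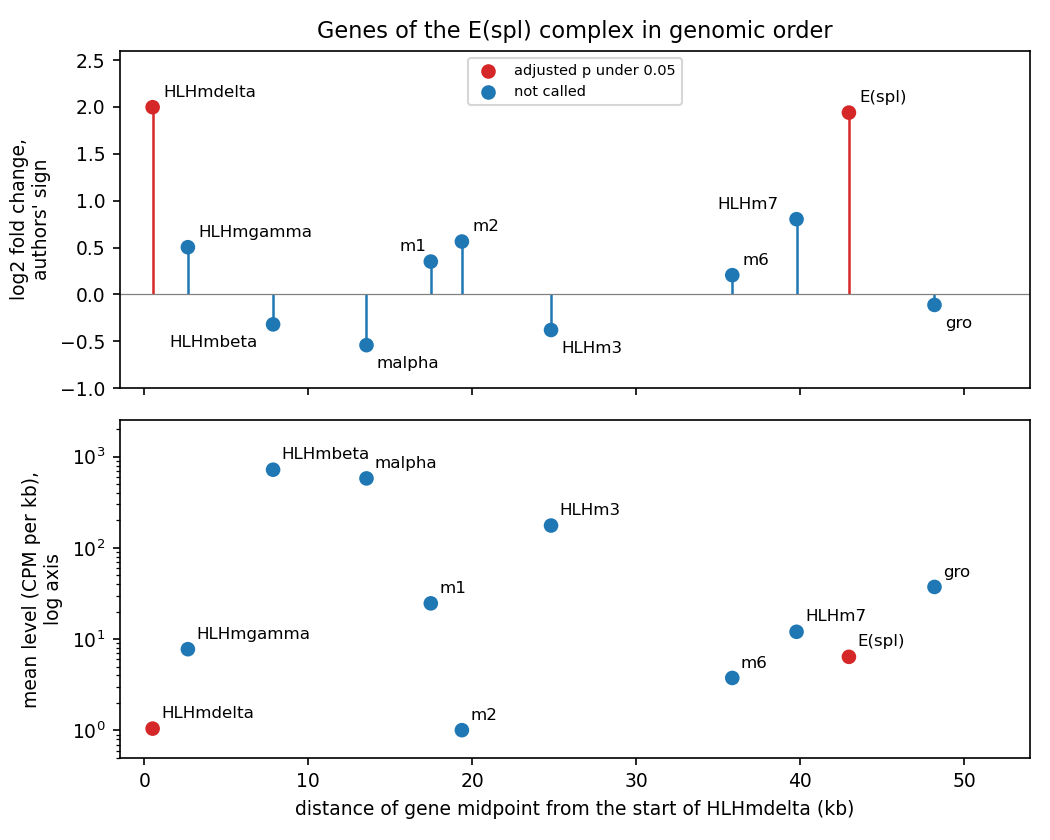
The upper panel plots the log2 fold change with the authors' sign, and the lower panel the mean level in CPM per kilobase on a log axis, for the 11 rows of the complex by distance in kb from the start of HLHmdelta. The called genes (red) lie near opposite ends at 1.998 and 1.94, and the 3 genes of highest level, HLHmbeta, malpha and HLHm3, are those below 0 apart from gro.

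The rest of a chosen list of Notch pathway genes gave no call. The list of 47 had 39 genes with a row, 4 of them in rows shared with another gene. The other 8 (Ser, HLHm5, m4, Brd, BobA, Tom, Ocho and Hey) had no row and could not be called. The list does not hold every gene with a part in Notch signalling. Of the 39 with a row, E(spl) and HLHmdelta were called positive, none was called negative and 37 did not pass, beside 5.17% and 1.94% over all rows. The median log2 fold change of the list was 0.02, against 0.05 over all rows. Signs were positive for 21 and negative for 18 of the list, and 53.8% of all rows were positive. Without the 8 genes above, 31 rows were left and none was called. Of the 31, 3 had an unadjusted p under 0.05 in the authors' deposited table, beside 1575 of all 8164 rows. Those 3 were fng, O-fut1 and HLHm7.

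Outside the targets, the largest values of either sign belonged to O-fut1 and fng, genes of enzymes that put sugars on Notch, and neither was called. O-fut1, which encodes the fucosyltransferase that modifies Notch, stood at 0.93 on a mean of 2.91 CPM in the authors' deposited table (p = 0.0125, adjusted p = 0.112). The glycosyltransferase gene fng, whose product extends that fucose and tunes the response to ligands, had -0.71 at 106 CPM in the authors' deposited table (p = 0.0350, adjusted p = 0.214). The span of fng overlaps that of CG10589. Against rows of like abundance the values were 0.63 for O-fut1 and -0.46 for fng. The glucosyltransferase gene rumi shares its row with CG31139, and that row stood at 0.68 in the authors' deposited table (adjusted p = 0.268).

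Of the genes that make the ligand active by ubiquitination and uptake, neur, mib1 and lqf stood at 0.25, -0.22 and -0.38 in the authors' deposited table (adjusted p from 0.651 to 0.792). For receptor cleavage, the authors' deposited table gave -0.50 for the metalloprotease gene kuz. Of the gamma-secretase subunit genes, Psn had 0.12, nct -0.19, aph-1 0.19 and pen-2 0.69 in the authors' deposited table, pen-2 at only 1.22 CPM. The adjusted p of the 5 cleavage genes ranged from 0.450 to 0.905. The spans of neur, mib1 and Psn overlap those of hyx, mRpS31 and mRpL15, in that order.

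No listed partner of Su(H) in the nucleus was called. The authors' deposited table has 0.04 for the row of the co-activator gene mam, which is shared with CG18371, and -0.52 for the acetyltransferase gene nej. The co-repressor genes H, gro and CtBP had -0.09, -0.11 and -0.17 in the authors' deposited table. All 8 nuclear genes of the list had an adjusted p of at least 0.450. Among 7 genes of receptor trafficking and modulation, numb, which encodes an inhibitor of Notch handed to a single daughter in asymmetric divisions, had -0.49 in the authors' deposited table (adjusted p = 0.496). The other 6 of that group lay between -0.45 and 0.26, with spdo in a row shared with PH4alphaEFB. The target gene klu, which encodes a zinc finger repressor, shares its row with a small nucleolar RNA and was listed at -0.09, with a mean of 80.9 CPM, in the authors' deposited table.

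**Figure D3:**
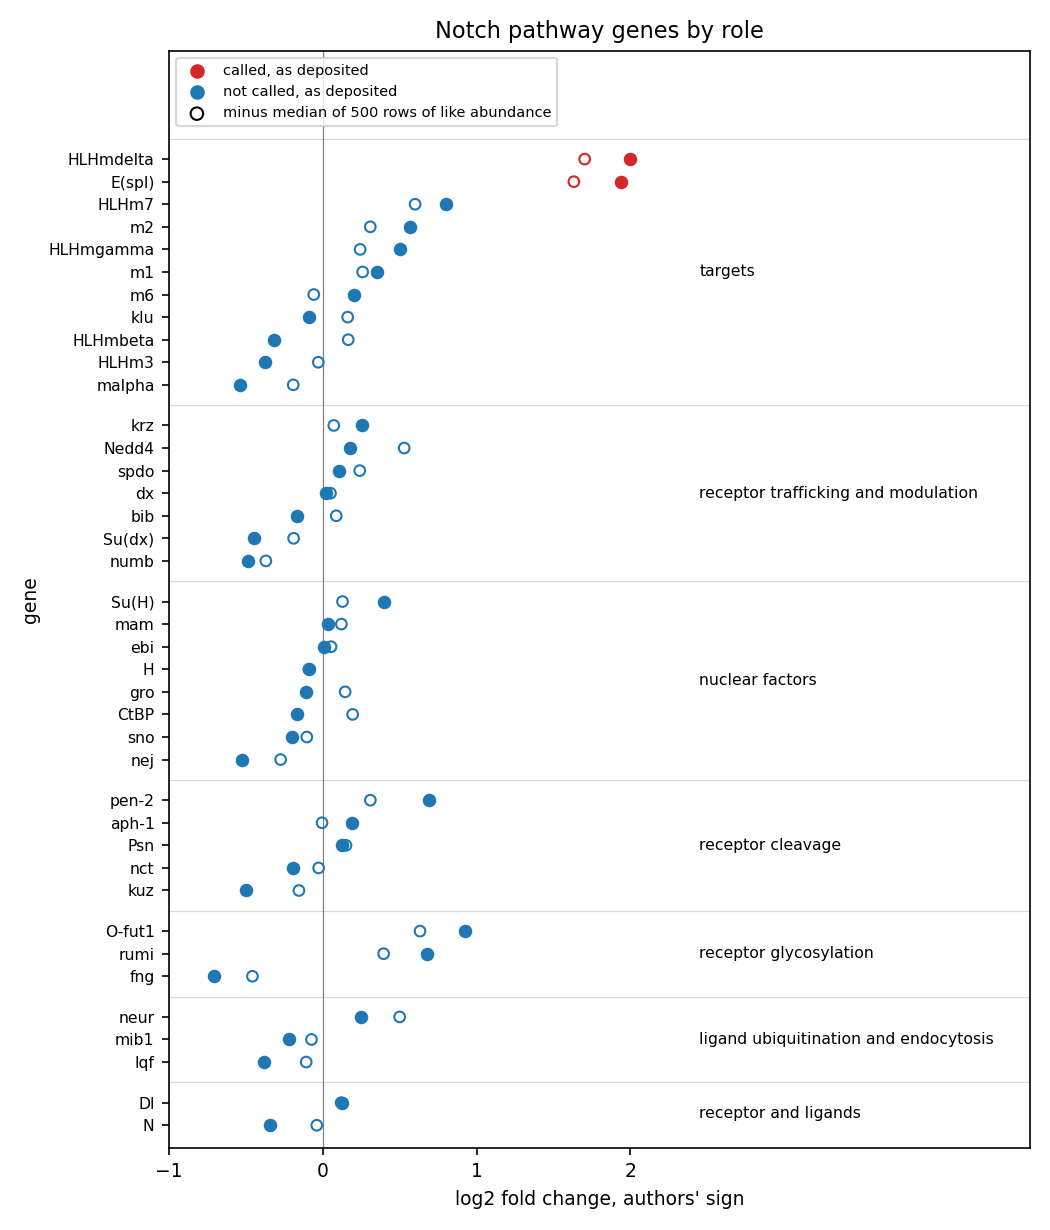
Each line is 1 of the 39 Notch pathway rows, grouped by role, with the log2 fold change in the authors' sign on the horizontal axis; filled points are the deposited values and open points the values minus the median of the 500 rows nearest in abundance. E(spl) and HLHmdelta (red) stand apart at 1.94 and 1.998, and the other 37 rows (blue, not called) lie between -0.71 and 0.93.

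Markers of the cell types that the sort could hold were read beside these results. All 6 progenitor markers had a row, N and Dl among them, and esg, whose driver marked the cells, was at 835 CPM in mean and at -0.41 in difference by the authors' deposited table (adjusted p = 0.548). Of these 6, only sna was called, with a positive sign. Markers of enteroendocrine cells had the same sign as E(spl) and HLHmdelta. All 8 were positive, beside 53.8% of all rows, and 6 were called, beside 7.1%. Their log2 fold changes ran from 0.63 to 4.04 in the authors' deposited table, and their means from 1.06 to 122 CPM. These 8 were picked with earlier results known and do not hold every hormone of these cells: the authors' deposited table has sNPF among its negative calls, at -1.90 (adjusted p = 1.50e-05). Of 7 enterocyte markers 2 were called positive and 2 negative. Of 7 visceral muscle markers 5 had a row, and 3 of these (up, sls and Zasp66) were called positive and none negative. The value of sls is uncertain as that gene's own level, since it stood at a mean of 14122 CPM and 13 other rows lay within 0.1 of it in both log2 fold change and log2 CPM. The span of Zasp66 overlaps that of Cdc6, another called row, which leaves up as the muscle call free of both. Of 5 haemocyte markers 4 had a row, and of these 2 were called positive and 1 negative. The part of these cell types in the differences of E(spl) and HLHmdelta was not tested.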

How the data were processed

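Values are the authors' own: per the file headers, a log2 difference, the mean abundance in log2 CPM, and for each gene row a p-value (PValue) with its adjusted form (FDR). A second deposited table repeats the 580 called rows. Tools in the submitters' processing notes are TopHat 1.2.0, Bowtie, FastQC and edgeR, and the build is dm3; no order is given. The name of the first table points to an exact test. The TruSeq RNA kit of the labels' protocols keeps no strand. Each table also held 12 columns of single libraries whose names match no sample label; some were seen when the table was first read, and none entered a computation. The counting of reads, the age in the numerator and the depth per library are not given in the sources used here, so intervals that need a depth are not given. The labels call the 3 preparations per age batches.

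No test was added to the authors' deposited one. The adjusted p equals a Benjamini-Hochberg adjustment over all 8164 rows. Each gene's log2 fold change was also set against the median of the 500 rows nearest in mean abundance, a step tested on simulated data. Starts in the table count from 0: of 4737 rows with 1 transcript in BDGP6 of Ensembl release 115, end minus start equals the transcript's length in 539, against 138 for the other reading. They are printed 1-based. Gene identifiers, exon numbers and transcript lengths come from that annotation by transcript identifier. For single-exon genes, levels per kilobase use the span of the row in dm3 in place of that transcript length. Rows named are the 8 genes, the complex from HLHmdelta to gro, and the list by role, where O-fut1, fng and other uncalled genes were chosen after their values were seen. Genes of like pattern over samples were not sought, since that needs library columns. The members and lists were chosen with earlier results of these data known. Software was Python 3.11.15 with pandas 2.3.3, matplotlib 3.10.9, scipy 1.17.1 and numpy 2.4.6.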

Additional observations from a re-analysis of the deposited data

How the results depend on the processing

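E(spl) and HLHmdelta remained the 2 calls among the 8 genes, and in the pathway list, at an adjusted p under 0.01, at a minimum difference of 2-fold, and when p-values were adjusted over rows of at least 1 CPM or over rows of a single gene. These settings use the same p-values and log2 fold changes of the authors again, so they are no separate evidence for the calls. With adjustment over rows of at least 5 CPM, 0 of the 8 genes and 0 of the list were called, by construction, since both genes lie under 5 CPM; the smallest adjusted p among the other 6 was then 0.413. With a Bonferroni adjustment 1 was called, E(spl) (0.00441), and HLHmdelta was not (0.251). Subtraction of the median of rows of like abundance turned the sign of HLHmbeta alone among the 8 genes. No paired analysis was possible because the library columns carry no name that matches a sample label; for the same reason no fit with another tool was made and no replicate was left out. The search for motifs in promoters was not run, since no sequences were used here. The low abundance of E(spl) and HLHmdelta, and the lack of values per library, limit what their calls show: whether a single library sets them was not tested.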
